A study of Mus musculus with 6 samples.

Results

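The BMP, TGF-beta and activin pathways were followed through 50 named genes in CD31-selected lung cells of mouse pups. The genes were taken by name from a list of ligands, receptors, extracellular antagonists, Smads and feedback targets: 14 ligands or ligand subunits, 12 receptors, 10 secreted antagonists and modulators, 8 Smads and 6 target genes. By branch, 25 genes belonged to BMP, 12 to TGF-beta and 9 to activin signalling, and 4 Smads were shared between branches. All 50 matched 1 of the 56941 gene IDs in the count table, and all 50 were among the 17072 genes with enough counts to test.

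The hyperoxia group (HO) held 3 libraries from pups kept in 75% oxygen, with exposure begun on postnatal day 0, and the room air group (RA) held 3 libraries from pups kept in 21% oxygen. Lungs of both groups were taken on postnatal day 7, and CD31-positive cells were pulled out of enzyme-digested tissue with magnetic beads. The sources used here give no strain or sex, nor whether a library came from 1 animal, and the p-values therefore reflect only how these libraries vary, which may be technical. Total counts per library ran from 39379793 to 42343192. Levels are given as CPM, the count scaled to a TMM-adjusted library total of 1000000. A gene was called when its adjusted p from edgeR's quasi-likelihood test over all 17072 genes was below 0.05.

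All 3 branches work through the same kind of relay. A secreted dimer brings together type I and type II receptor kinases, and the type I receptor then phosphorylates a Smad. BMP receptors act mainly through Smad1, Smad5 and Smad9, TGF-beta and activin receptors through Smad2 and Smad3, and all of these pair with Smad4 to act on genes. Smad6 and Smad7 hold the relay back, and secreted proteins such as noggin and follistatin trap the ligands outside the cell. In lung vessels the pathway is known above all for Bmpr2, Acvrl1 and Eng, whose loss causes inherited vascular disease in people, and TGF-beta and BMP signals also pattern the alveoli.

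The libraries were not purely endothelial. The 10 pan-endothelial markers, Pecam1 and Cdh5 among them, were abundant, with a summed level of 9832 to 13520 CPM in HO and 11990 to 16590 CPM in RA. Of these 10, Egfl7 was called lower, and 9 were not called. The log2 fold change was negative for 9 of the 10 (median -0.28), and 3 were lower at an unadjusted p under 0.05 in edgeR's test. Alveolar type 1 epithelial markers were present as well and differed between the groups: 8 of 8 were called higher (median log2 fold change 1.24). Their summed level was 5163, 6772 and 5270 CPM in HO, against 2145, 2426 and 3010 CPM in RA. The 8 alveolar type 2 markers summed to 13850 to 16900 CPM in HO and 12380 to 19370 CPM in RA, and edgeR called 0 of 8. At an unadjusted p under 0.05, 1 type 2 marker was higher and 1 lower; DESeq2 called 1 lower and limma-voom 0. Of 9 fibroblast markers, 1 (Npnt) was called higher, with sums of 1235 to 1811 CPM in HO and 914.5 to 1275 CPM in RA. Npnt alone averaged 555 CPM in HO and 230 CPM in RA, which is most of the difference between the sums. Of the 9, 6 had positive and 3 negative log2 fold changes. Pdgfra was lower without overlap but not called (log2 fold change -0.75). The sums for smooth muscle and pericyte markers were 261.6 to 554 CPM in HO and 286.3 to 394.7 CPM in RA. The 4 mesothelial markers summed to 123.3, 174.3 and 138.8 CPM in HO, against 66.83, 49.23 and 56.66 CPM in RA, a 2.53-fold difference without overlap. Msln made up most of this sum, at a mean of 137 CPM in HO and 40.6 CPM in RA, and was called higher (log2 fold change 1.76). Upk3b, Lrrn4 and Wt1 were not called, with log2 fold changes of -0.95, -1.66 and 0.04. The median of the mesothelial list was -0.46, so its sum and its median went opposite ways. Of 8 macrophage and myeloid markers, Marco and Cd68 were called higher (log2 fold changes 2.22 and 0.87) and Chil3 lower (-1.94), with sums of 786.7 to 982 CPM in HO and 923.8 to 1596 CPM in RA. The part of these cell types in the results was not tested. In each group 1 library stood highest for alveolar type 1, type 2, fibroblast and muscle markers and lowest for endothelial markers, namely HO 2 and RA 3. Reads from 4 Y-linked genes summed to 0.0472, 157.3 and 0 CPM in HO 1, 2 and 3, against 129.3, 161.5 and 158.1 CPM in RA 1, 2 and 3. Y-linked reads were thus at or near 0 in 2 of 3 hyperoxia libraries and in 0 of 3 room air libraries, so what differs with them cannot be fully told apart from oxygen.

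In hyperoxia the activin subunit gene Inhba rose 7.01-fold and the activin antagonist gene Fstl3 3.71-fold, the 2 largest fold changes among the 50, and Tgfb2 and Smad3 rose as well. Bmp4, Bmp5, Bmpr1a, Bmper, Ltbp3 and Acvr2a also rose, whereas Bmp2 and Bmp6 fell. The target genes Id1, Id2, Id3, Skil, Pmepa1 and Tgfbi were not called in either direction: edgeR, DESeq2 and limma-voom each called 0 of 6, and 0 had an unadjusted p under 0.05. In all, 10 of 50 members (20%) were called higher, where 6.77% of all tested genes were called higher. Another 2 of 50 (4%) were called lower, beside 4.41% of all tested genes. The members were chosen with earlier results of these data known. These shares therefore describe the list and are no test of an excess. The median log2 fold change of the 50 was -0.02, and that of all tested genes was -0.01. The higher members numbered 5 without RA 1 and 5 without RA 2, against 10 with all libraries. The lower members numbered 1 without HO 1 or HO 3, 0 without HO 2, RA 1 or RA 2 and 3 without RA 3. The groups did not overlap at 11 members with higher and 6 with lower values in hyperoxia (22% and 12%), beside 16.5% and 14.4% of all tested genes.

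**Figure D1:**
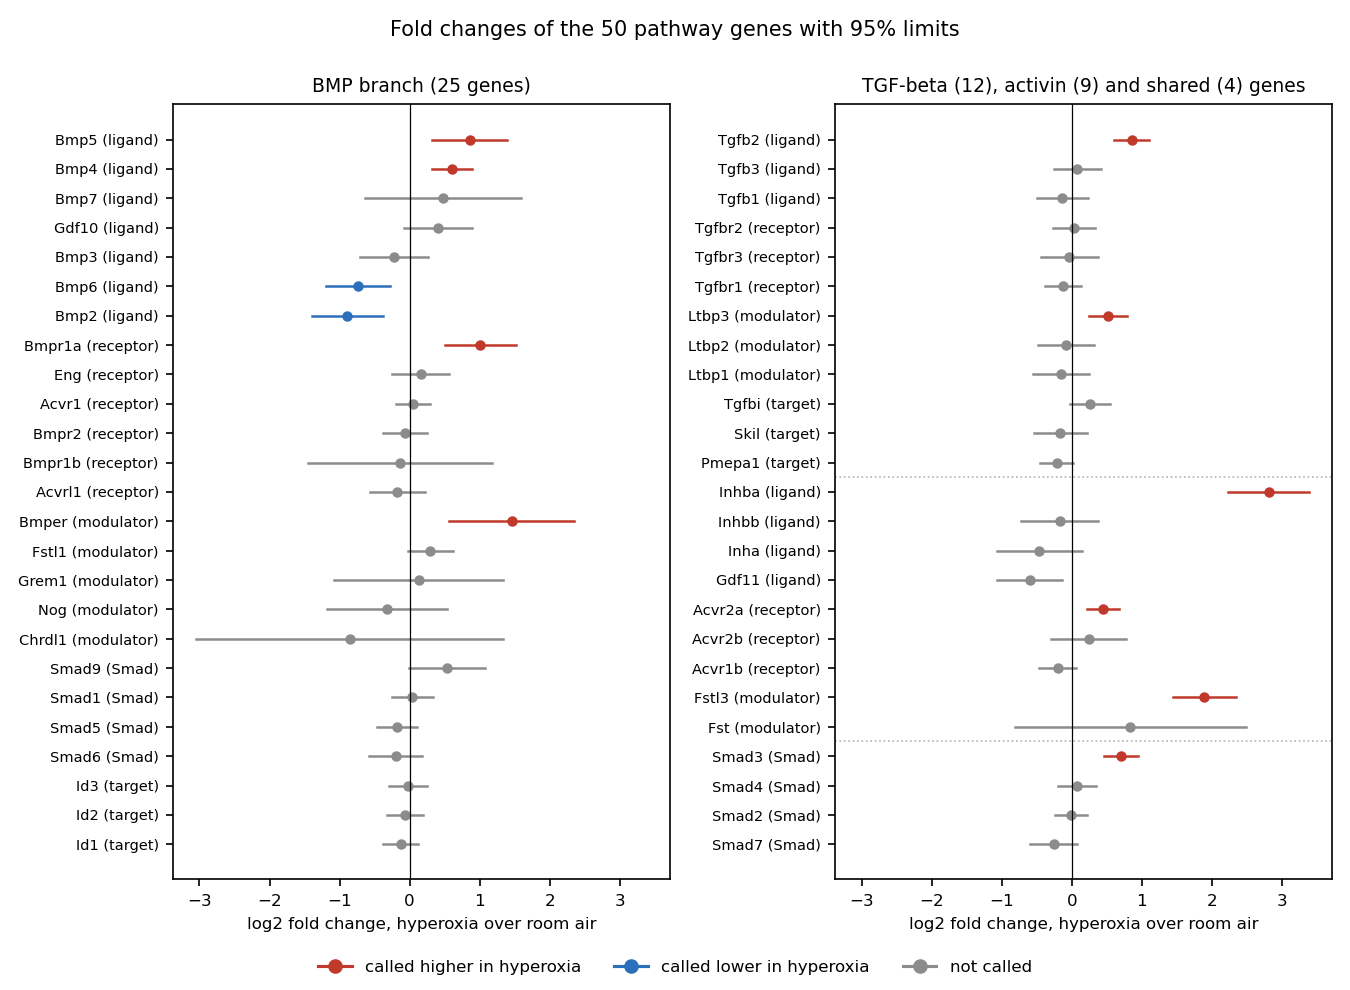
Log2 fold change of each of the 50 genes, hyperoxia over room air, with approximate 95% limits, by branch and role (the right panel runs from TGF-beta through activin to the shared Smads). Red marks the 10 genes called higher, blue the 2 called lower and grey the 38 not called; Inhba and Fstl3 lie farthest to the right, at 2.81 and 1.89.

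Inhba, Fstl3, Tgfb2 and Smad3 were called under every alternative tried (17 of 17 each), and for this reason the sequence before their transcription starts is shown. Each line holds the 250 bases upstream of the start annotated by RefSeq on GRCm38.p6, read 5′ to 3′ on the strand of the gene. They lie at chr13:16011601-16011850 on the plus strand for Inhba, chr10:79777024-79777273 on the plus strand for Fstl3, chr1:186705990-186706239 on the minus strand for Tgfb2 and chr9:63757995-63758244 on the minus strand for Smad3. Capitals mark matches to CAGAC, the core of a Smad-binding element, or to CACGTG, an E-box, on either strand.
Inhba: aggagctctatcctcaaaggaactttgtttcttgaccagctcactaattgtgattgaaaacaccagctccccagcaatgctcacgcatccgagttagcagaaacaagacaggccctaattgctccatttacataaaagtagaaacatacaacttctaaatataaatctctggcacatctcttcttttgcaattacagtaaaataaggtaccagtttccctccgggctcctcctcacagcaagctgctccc
Fstl3: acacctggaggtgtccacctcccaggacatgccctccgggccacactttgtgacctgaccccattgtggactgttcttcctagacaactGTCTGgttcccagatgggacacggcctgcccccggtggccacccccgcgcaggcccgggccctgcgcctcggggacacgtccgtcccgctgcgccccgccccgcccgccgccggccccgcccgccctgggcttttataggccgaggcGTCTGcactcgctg
Tgfb2: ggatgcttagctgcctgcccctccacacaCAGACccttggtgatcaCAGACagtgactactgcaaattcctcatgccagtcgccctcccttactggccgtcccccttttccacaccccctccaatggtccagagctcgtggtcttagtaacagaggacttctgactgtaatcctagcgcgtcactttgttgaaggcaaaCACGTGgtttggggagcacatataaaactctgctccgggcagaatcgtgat
Smad3: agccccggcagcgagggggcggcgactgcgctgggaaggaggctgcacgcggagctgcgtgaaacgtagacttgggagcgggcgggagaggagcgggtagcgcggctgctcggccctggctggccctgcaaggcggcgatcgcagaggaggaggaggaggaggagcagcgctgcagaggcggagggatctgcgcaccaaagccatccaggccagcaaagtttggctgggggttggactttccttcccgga
The Tgfb2 window held 2 matches to CAGAC and 1 to CACGTG, and the Fstl3 window held 2 matches to the reverse complement GTCTG. The Inhba and Smad3 windows held no match to these letters. None of the 4 windows held GTCTAGAC, the palindromic Smad element, or GGCGCC, a GC-rich element of BMP-responsive genes. CAGAC is a common word: 42.2% of 32851 promoters of this length held it on either strand, and 19 of the 35 members with a promoter in the table did. Here and below, a member with more than 1 promoter counted when any of them held a match. Member counts and shares of promoters are therefore unlike measures. CACGTG stood in 6.02% of all promoters and in 4 of the 35 members, which were Acvr1b, Bmp4, Bmp6 and Tgfb2. GGCGCC stood in 9.59% of all promoters and in 8 members, and GTCTAGAC in 0.167% and in 0 members. A match is only a description of the letters, not a bound site.

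Among the ligand genes, 4 of 14 were called higher and 2 lower, beside 6.77% and 4.41% of all tested genes. Inhba encodes the beta-A subunit that pairs with itself to form activin A. Its level was 18.4, 24.9 and 18.6 CPM in HO, against 2.08, 2.58 and 4.15 CPM in RA. Every hyperoxia library stood far above the highest room air library. Inhba was 7.01-fold higher in hyperoxia, a log2 fold change of 2.81 with an SE of 0.26 (adjusted p = 0.000202). None of the other 3 activin ligand genes was called. Inhbb, the beta-B subunit gene, had 49.6, 49.2 and 69.4 CPM in HO, against 47.6, 94.1 and 48.1 CPM in RA, and the groups overlapped (log2 fold change -0.17, adjusted p = 0.713). Inha encodes the alpha subunit, which turns activin subunits into inhibins. It was at 2.28, 2.67 and 2.21 CPM in HO and 2.98, 3.42 and 3.48 CPM in RA, and did not pass although the groups did not overlap (log2 fold change -0.46, adjusted p = 0.332). Gdf11, a ligand that uses activin receptors, averaged 6.2 ± 1.27 CPM in HO and 9.41 ± 0.945 CPM in RA (SD, n = 3 each). It missed the threshold (log2 fold change -0.60, adjusted p = 0.099), but passed by DESeq2's test (adjusted p = 0.0465) and with Y-linked reads as a term (0.0425).

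The TGF-beta ligand genes also moved unevenly. Tgfb2 had 108, 129 and 121 CPM in HO, against 61.2, 64 and 72.8 CPM in RA. The groups were well apart, and the rise was 1.81-fold (log2 fold change 0.85, SE 0.11, adjusted p = 0.00123). Tgfb1, the most abundant ligand gene of the branch per length, had a log2 fold change of -0.13 (95% limits -0.50 to 0.23, adjusted p = 0.668). Tgfb3 had one of 0.08 (95% limits -0.25 to 0.41, adjusted p = 0.797). The upper limits of both lay below 0.60, the lower limit of Tgfb2; the differences between the genes were not tested. In the same libraries the ratio of Tgfb2 to Tgfb1, each per kilobase of exon, was 0.236, 0.389 and 0.269 in HO and 0.113, 0.147 and 0.191 in RA, which restates the call of Tgfb2 and is no further test.

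Of 7 BMP ligand genes, 2 were called higher and 2 lower, beside the same 6.77% and 4.41%, and each of these 4 calls was lost on leaving out at least 1 single library. Bmp6, a ligand that endothelial cells are known to make, fell to 251, 172 and 225 CPM in HO, against 370, 453 and 256 CPM in RA. HO 1 and RA 3 were close to each other, so the groups were barely apart. Its log2 fold change was -0.74 (SE 0.20, adjusted p = 0.043). Bmp6 was not called without HO 1 (adjusted p = 0.0503), HO 2 (0.122), HO 3 (0.1), RA 1 (0.109) or RA 2 (0.167). Bmp2, another classical BMP, fell to 18.3, 11 and 18.4 CPM in HO, against 28.7, 37.1 and 22.6 CPM in RA. The log2 fold change of Bmp2 was -0.89, with an SE of 0.23 (adjusted p = 0.0303). Bmp2 was not called without HO 2 (adjusted p = 0.0573), RA 1 (0.0727) or RA 2 (0.136).

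Bmp4 is a ligand needed for lung and vessel formation in the mouse. It rose to 81.7, 109 and 90.2 CPM in HO, against 68.9, 60.2 and 56.1 CPM in RA (log2 fold change 0.60, SE 0.13, adjusted p = 0.0143). The groups did not overlap, but Bmp4 was not called without RA 2 (adjusted p = 0.0585), nor with HO 2 and RA 3 both left out (0.0691). Bmp5, a close relative of Bmp6 and Bmp7, was scarcer. It rose to 7.1, 9.61 and 7.13 CPM in HO, against 3.68, 3.9 and 5.57 CPM in RA (log2 fold change 0.86, SE 0.24, adjusted p = 0.0461). The call was lost without HO 1 (adjusted p = 0.0758), HO 2 (0.127), HO 3 (0.0983), RA 1 (0.14) or RA 2 (0.155). In GENCODE M21, 46.7% of its exonic bases overlap Gm26903, which had 0 to 8 counts per library. Per kilobase of exon, the ratio of Bmp4 to Bmp6 was 0.565, 1.1 and 0.695 in HO and 0.323, 0.23 and 0.38 in RA. These genes were paired after their opposite calls were known, so the ratio restates those calls. The other BMP ligand genes Bmp3, Bmp7 and Gdf10 averaged 1.69 to 7.71 CPM in HO and 1.22 to 9 CPM in RA and were not called (log2 fold changes -0.23 to 0.47).

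**Figure D2:**
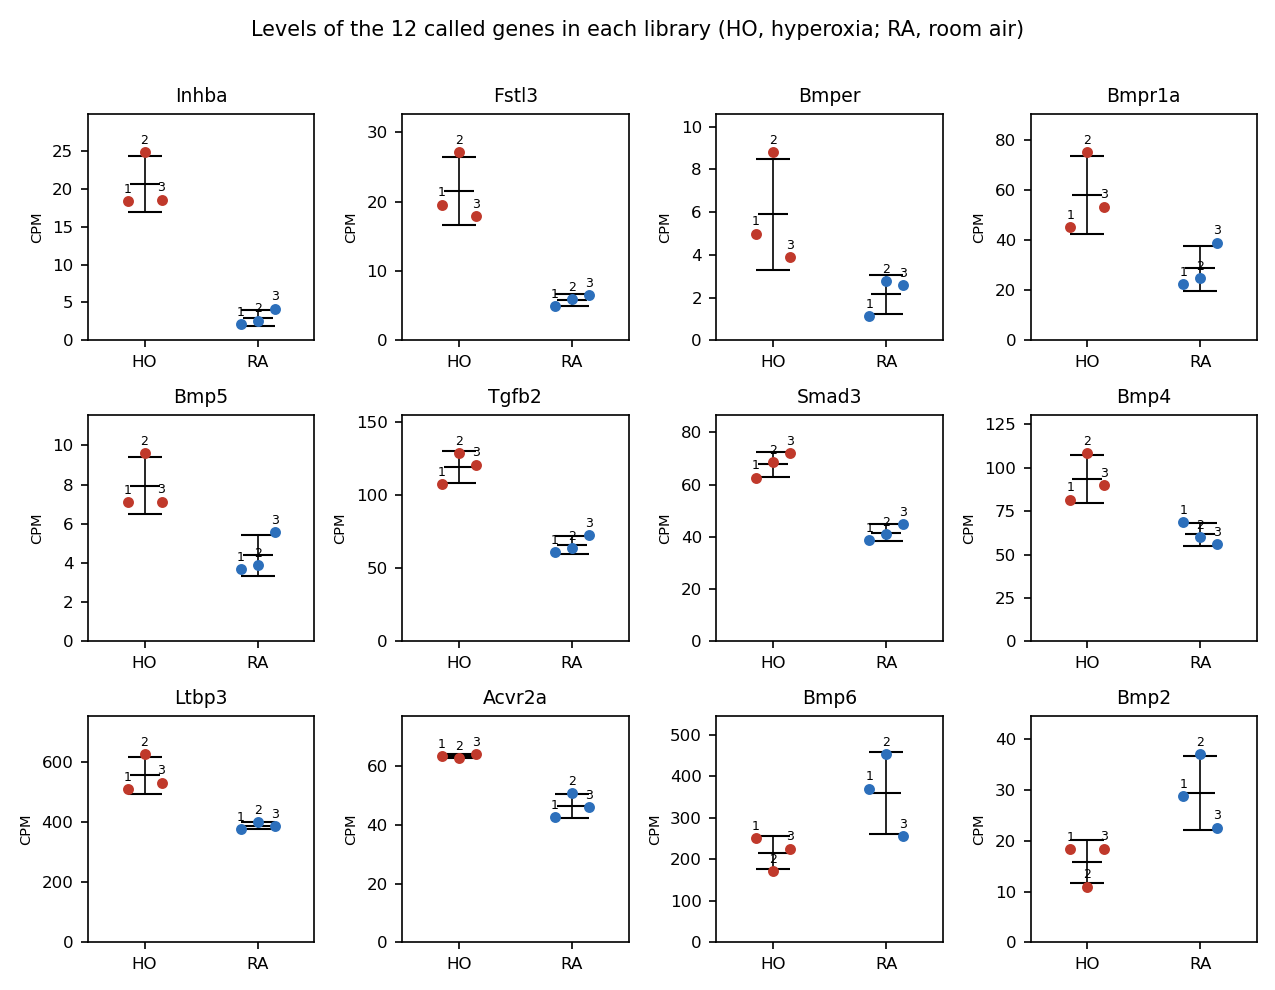
CPM of the 12 called genes in each of the 6 libraries, hyperoxia (HO, red) left of room air (RA, blue), with numbers for the replicate and black bars for the mean ± SD. The groups did not overlap at any of the 12; HO 2 was the highest hyperoxia library for 8 of the 10 higher genes and the lowest for both lower genes, Bmp2 and Bmp6.

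Of 12 receptor genes, edgeR called 2 higher and 0 lower (DESeq2 and limma-voom also 0 lower, and 0 lower at an unadjusted p under 0.05), beside the 6.77% and 4.41% of all tested genes. The exceptions were a type I receptor gene for BMPs and a type II receptor gene for activins. Bmpr1a had 45.3, 75.3 and 53.4 CPM in HO, against 22.5, 24.8 and 39 CPM in RA (log2 fold change 1.01, SE 0.23, adjusted p = 0.0172). RA 3 came close to HO 1, and the call was lost without RA 1 (adjusted p = 0.07) or RA 2 (0.0813). Acvr2a was even across hyperoxia libraries, at 63.3, 62.5 and 64 CPM in HO, against 42.5, 50.8 and 45.9 CPM in RA (log2 fold change 0.45, SE 0.11, adjusted p = 0.0214). It was not called without HO 1 (adjusted p = 0.0667), HO 3 (0.0926) or RA 1 (0.0717), nor with Y-linked reads as a term (0.0706). In GENCODE M21, 7.84% of its exonic bases overlap Orc4, which was counted in every library.

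The receptors for which lung endothelium is best known were abundant and not called. Acvrl1 and Eng encode the type I receptor and co-receptor through which endothelial cells sense circulating BMPs. Per kilobase of exon they were the highest of the 12 receptor genes, with Acvrl1 at 386 in HO and 437 in RA and Eng at 350 in HO and 313 in RA (mean CPM per kilobase). In CPM, Acvrl1 had 1838, 1442 and 1661 in HO, against 2149, 1999 and 1438 in RA, and the groups overlapped (log2 fold change -0.18, 95% limits -0.57 to 0.22, adjusted p = 0.59). Eng had 1498, 1193 and 1556 CPM in HO, against 1342, 1496 and 963 CPM in RA (log2 fold change 0.16, 95% limits -0.25 to 0.57, adjusted p = 0.643). Bmpr2, the type II receptor gene mutated in heritable pulmonary arterial hypertension, had 562, 532 and 569.7 CPM in HO, against 548, 693 and 501 CPM in RA. Its log2 fold change was -0.07 (95% limits -0.38 to 0.25, adjusted p = 0.821).

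The TGF-beta receptor genes were not called either. Tgfbr2, the type II receptor gene, had 505, 450.4 and 524 CPM in HO, against 542, 495 and 409.9 CPM in RA, and the groups overlapped (log2 fold change 0.03, 95% limits -0.27 to 0.34, adjusted p = 0.914). The log2 fold changes of Tgfbr1, the type I receptor gene, and Tgfbr3, the betaglycan co-receptor gene, were -0.12 and -0.03. Acvr1, Acvr1b and Acvr2b, which encode type I and type II receptors, had log2 fold changes of 0.05, -0.20 and 0.24 and were not called. Bmpr1b was scarce, with 20 to 32 counts per library in HO and 16 to 42 in RA.

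**Figure D3:**
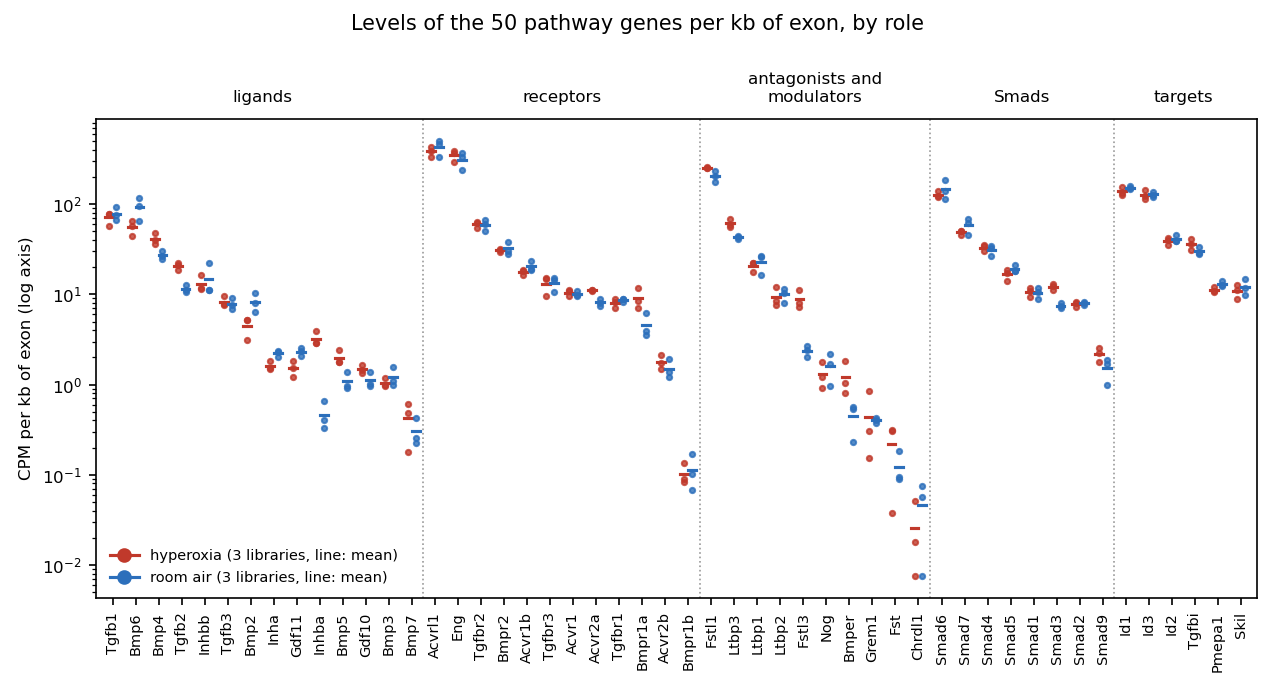
Levels of the 50 genes in CPM per kilobase of exon on a log axis, by role, with red points and lines for the 3 hyperoxia libraries and their mean, and blue ones to the right for room air. Acvrl1, Eng and Fstl1 stand highest, and Bmpr1b, Fst and Chrdl1 lowest; the gap between the groups is widest for Inhba and Fstl3.

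Of the 10 secreted antagonists and modulators, edgeR called 3 higher and 0 lower (0 lower also by DESeq2, by limma-voom and at an unadjusted p under 0.05), beside 6.77% and 4.41% of all tested genes. Fstl3, a follistatin-like protein that binds activins, had 19.6, 27.2 and 17.9 CPM in HO, against 4.94, 5.97 and 6.52 CPM in RA. All hyperoxia libraries lay far above room air, and the rise was 3.71-fold (log2 fold change 1.89, SE 0.20, adjusted p = 0.000402). In GENCODE M21, 47.3% of its exonic bases overlap Prss57, which had 0 to 8 counts per library. Fst, the gene for follistatin itself, was scarce, with 60, 7 and 55 counts in HO 1, 2 and 3 against 18, 16 and 35 in RA 1, 2 and 3. It was not called (log2 fold change 0.84, 95% limits -0.81 to 2.48, adjusted p = 0.538). Inhba and Fstl3, agonist and antagonist, both rose. Per kilobase of exon, the ratio of Inhba to Fstl3 was 0.36, 0.35 and 0.396 in HO and 0.161, 0.165 and 0.244 in RA, without overlap, for a pair chosen with both fold changes known. An exact permutation test of 3 against 3 cannot go below 0.1.

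Ltbp3 encodes a protein that holds latent TGF-beta in the matrix. It had 511, 627 and 532 CPM in HO, against 377, 400.4 and 388 CPM in RA (log2 fold change 0.52, SE 0.12, adjusted p = 0.0229). The room air libraries were tightly grouped, but the call was lost without HO 2 (adjusted p = 0.0794), HO 3 (0.0756), RA 1 (0.0775) or RA 2 (0.0625). Its relatives Ltbp1 and Ltbp2 had log2 fold changes of -0.16 and -0.08. Bmper, a secreted BMP-binding protein first found in endothelial precursors, had 4.99, 8.82 and 3.88 CPM in HO, against 1.11, 2.76 and 2.58 CPM in RA (log2 fold change 1.46, SE 0.40, adjusted p = 0.0425). It was not called without HO 1 (adjusted p = 0.0624), HO 2 (0.125), RA 1 (0.108) or RA 2 (0.0767). Fstl1, a secreted glycoprotein that opposes BMP4 in the developing mouse lung, was the most abundant of these genes per length. It had 1224, 1226 and 1259.99 CPM in HO, against 1151, 1009 and 859 CPM in RA. The groups did not overlap, yet Fstl1 was not called (log2 fold change 0.30, 95% limits -0.02 to 0.61, adjusted p = 0.228). The classical BMP traps were near the bottom of the range: Nog averaged 2.2 CPM in HO and 2.74 CPM in RA, Grem1 averaged 1.82 CPM in HO and 1.67 CPM in RA, and Chrdl1 had 2 to 14 counts per library in HO and 2 to 21 in RA. None of these 3 was called.

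Smad3 was the single Smad of 8 that was called (12.5% higher, where 6.77% of all tested genes were). It carries TGF-beta and activin signals to genes, and had 62.6, 68.5 and 72.1 CPM in HO, against 38.8, 41.1 and 44.9 CPM in RA. Both groups were tight and well apart (log2 fold change 0.70, SE 0.11, adjusted p = 0.0027). Smad2, which carries the same signals, was not called (log2 fold change -0.01, 95% limits -0.24 to 0.21, adjusted p = 0.951). The ratio of Smad3 to Smad2 per kilobase of exon was 1.57, 1.49 and 1.61 in HO and 0.854, 0.925 and 1.07 in RA, which restates the call of Smad3. The BMP Smads Smad1 and Smad5 had log2 fold changes of 0.04 and -0.18, and the common partner Smad4 one of 0.08. Smad9, the scarcest BMP Smad, had one of 0.53 (adjusted p = 0.213). Of the inhibitory Smads, Smad6 had 387, 444 and 399 CPM in HO, against 449, 597 and 367 CPM in RA, with overlap (log2 fold change -0.20, adjusted p = 0.518). Smad7 was not called (log2 fold change -0.26, adjusted p = 0.332). It passed without RA 3 (log2 fold change -0.42, adjusted p = 0.0423) and with HO 2 and RA 3 both left out (-0.39, adjusted p = 0.0409).

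None of the 6 target genes was called, where 6.77% of all tested genes were called higher and 4.41% lower. For so few genes, 0 calls is near these shares. The Id genes encode dominant-negative helix-loop-helix factors and are the best known direct targets of BMP Smads. Id1 had 181, 156 and 146 CPM in HO, against 174, 184 and 170.1 CPM in RA. Id3 had 259, 204 and 219.9 CPM in HO, against 229, 246 and 216 CPM in RA. Groups overlapped at both, and at Id2. The 95% limits of the log2 fold change were -0.38 to 0.12 for Id1, -0.33 to 0.18 for Id2 and -0.29 to 0.25 for Id3, so a change beyond 0.38 log2 units lay outside the limits of each. Of the TGF-beta targets, the matrix protein gene Tgfbi had 135, 156 and 116 CPM in HO, against 109, 106 and 125 CPM in RA (log2 fold change 0.26, adjusted p = 0.238). Skil encodes the Smad repressor SnoN and Pmepa1 a feedback inhibitor that binds Smads. Their log2 fold changes were -0.17 (adjusted p = 0.598) and -0.22 (adjusted p = 0.24).

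The calls of the branches were set side by side. In the activin branch 3 of 9 were called higher (Inhba, Fstl3, Acvr2a) and 0 lower, with a median log2 fold change of 0.24 (DESeq2 called 1 lower, Gdf11, which also had an unadjusted p under 0.05, and limma-voom called 0 lower). In the BMP branch 4 of 25 were called higher (Bmp4, Bmp5, Bmpr1a, Bmper) and 2 lower, with a median of -0.02. In the TGF-beta branch 2 of 12 were called higher (Tgfb2, Ltbp3) and 0 lower, with a median of -0.06 (0 lower also by DESeq2, by limma-voom and at an unadjusted p under 0.05). Beside these stand the 6.77% higher and 4.41% lower of all tested genes, and the differences between branches were not tested. The counts also depend on the assignment. In an alternative, the shared Smads and Gdf10 counted as TGF-beta genes and Fstl1 as an activin gene. The higher genes then numbered 3 in TGF-beta, 4 in BMP and 3 in activin. The activin count held at 2 or 3 whichever library was left out. The BMP count of higher genes was 2 without HO 1 or HO 2, 1 without RA 1 and 0 without RA 2, and the TGF-beta count was 1 without HO 2, HO 3, RA 1 or RA 2. The lower BMP genes numbered 1 without HO 1 or HO 3 and 0 without HO 2, RA 1 or RA 2.

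The higher members were set beside the alveolar type 1 markers, which were higher as well. Of the 10 higher members, 8 were highest in HO 2 among hyperoxia libraries, and 6 were highest in RA 3 among room air libraries. Both held for 5 of the 10, whereas Bmp4 was lowest in RA 3 and Acvr2a lowest in HO 2. HO 2 and RA 3 had the highest alveolar type 1 sums of their groups, and also the highest type 2, fibroblast and muscle sums. Each member was set against the summed CPM of 1 non-endothelial type, the 8 alveolar type 1 markers, in its own library. On that scale Inhba and Fstl3 stayed higher in hyperoxia without overlap. Inhba had 3.57, 3.68 and 3.52 CPM per 1000 CPM of markers in HO, against 0.97, 1.06 and 1.38 in RA. Fstl3 had 3.79, 4.02 and 3.4 in HO, against 2.3, 2.46 and 2.17 in RA. Bmpr1a and Bmper overlapped on that scale, and the other 6 higher members (Bmp4, Bmp5, Tgfb2, Ltbp3, Acvr2a, Smad3) were lower in hyperoxia without overlap. Tgfb2 had 20.9, 19.1 and 23 in HO and 28.6, 26.4 and 24.2 in RA. The marker sum was itself 2.27-fold higher in hyperoxia, so a gene that rose less than this tends to come out lower. These scaled values thus largely restate the fold changes and are no further test. Whether the rise of any of the 10 higher members has to do with more alveolar type 1 RNA in the libraries was not tested. In bulk libraries, more cells of a type and more RNA per cell cannot be told apart.

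The endothelial sums overlapped between the groups, and 1 of the 10 markers was called lower. Bmp2 and Bmp6 were both lowest in HO 2 and in RA 3 within their groups, as was the endothelial sum. Set against the summed CPM of the 10 endothelial markers, both Bmp2 and Bmp6 were lower in hyperoxia without overlap. Bmp6 had 18.6, 17.5 and 17.8 CPM per 1000 CPM of markers in HO, against 22.3, 28.3 and 21.3 in RA. Bmp2 had 1.36, 1.12 and 1.45 in HO, against 1.73, 2.32 and 1.88 in RA. On the same scale all 10 higher members stayed higher without overlap. The mean endothelial sum was itself lower in hyperoxia (12010 against 14860 CPM in room air), which raises hyperoxia values on this scale. The scaled values use the same 6 libraries and genes already called, so they are no further test. Whether the fall of Bmp2 and Bmp6 has to do with less endothelial RNA in the libraries was not tested.

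**Figure D4:**
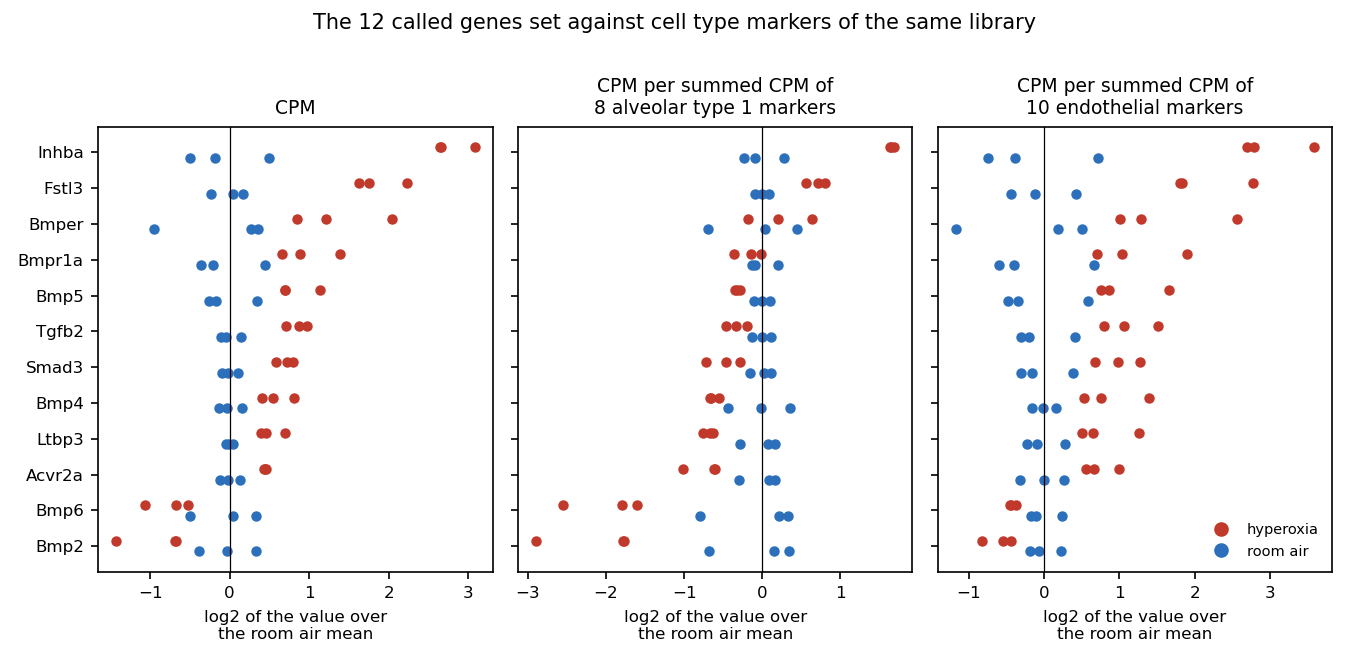
Log2 of each library's value over the room air mean for the 12 called genes (red, hyperoxia; blue below it, room air), as CPM (left), per summed CPM of 8 alveolar type 1 markers (middle) and per summed CPM of 10 endothelial markers (right). Against alveolar type 1 markers only Inhba and Fstl3 of the 10 higher genes stay above room air in all libraries, while Bmp2 and Bmp6 stay below on each scale. The alveolar type 1 sum is itself 2.27-fold higher in hyperoxia, which pulls the hyperoxia points of the middle panel to the left.

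Further genes of the pathway were examined as 79 names in 5 lists, of which 60 could be tested. Tgif1 belonged to 2 lists and was counted once, among the intracellular regulators. In all 11 of the 60 were called higher (18.3%) and 1 lower (1.67%), with a median log2 fold change of 0.19, beside 6.77% higher, 4.41% lower and a median of -0.01 over all tested genes. These lists too were chosen with earlier results of the data known, so the shares are a description and no test. Of 7 other ligand genes tested, Gdf15 was called higher. It encodes a distant member of the family that signals through a receptor outside it, and had 39.9, 77.4 and 61.7 CPM in HO, against 2.42, 3.9 and 5.72 CPM in RA (log2 fold change 3.89, adjusted p = 0.000102). Gdf2 and Bmp10, the ligand genes for Acvrl1, did not have enough counts to test.

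Of 5 other receptors and co-receptors tested, edgeR called 3 higher and 0 lower (0 lower also by DESeq2, by limma-voom and at an unadjusted p under 0.05). Over all tested genes, 6.77% were called higher and 4.41% lower. Rgma, a BMP co-receptor gene, had 11.1, 23 and 15.1 CPM in HO, against 5.4, 6.43 and 6.47 CPM in RA (log2 fold change 1.43, adjusted p = 0.00497). Bambi, the gene for a decoy receptor without kinase, had 34, 36 and 29.9 CPM in HO, against 22.6, 22.5 and 23.3 CPM in RA (log2 fold change 0.54, adjusted p = 0.0154). Amhr2, the receptor gene for anti-Müllerian hormone, averaged 3.84 CPM in HO and 1.82 CPM in RA (log2 fold change 1.08, adjusted p = 0.0308). Bambi was not called without HO 1 (adjusted p = 0.0541) or RA 2 (0.0585). Amhr2 was not called without HO 1 (adjusted p = 0.0683), HO 3 (0.126), RA 1 (0.0809), RA 2 (0.105) or RA 3 (0.052).

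Of 17 other antagonists and matrix modulators, edgeR called 3 higher and 0 lower (1 lower by DESeq2, 0 by limma-voom and 1 at an unadjusted p under 0.05). Of all tested genes, 6.77% were called higher and 4.41% lower. Nbl1, the gene for a BMP antagonist of the DAN family, had 96.3, 119 and 84.9 CPM in HO, against 37.2, 37.6 and 42.5 CPM in RA (log2 fold change 1.36, adjusted p = 0.000293). The groups were far apart. Tll1, a tolloid-like protease gene, rose as well (log2 fold change 0.60, adjusted p = 0.0247). Tll1 was not called without HO 1 (adjusted p = 0.083), HO 3 (0.11), RA 2 (0.0741) or RA 3 (0.0625), nor with Y-linked reads as a term (log2 fold change 0.32, adjusted p = 0.218). Of 17 intracellular regulators, 1 was called higher (5.88%), which is near the 6.77% of all tested genes. It was Wwp1, a ubiquitin ligase gene, with 102, 137 and 111 CPM in HO, against 47.7, 61.6 and 63.4 CPM in RA (log2 fold change 1.02, adjusted p = 0.0018).

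Among 14 genes listed as targets, 3 were called higher and 1 lower (21.4% and 7.14%), beside 6.77% and 4.41% of all tested genes. Tmem100, an endothelial gene that depends on Acvrl1 signalling in the mouse, fell to 481, 381 and 419.9 CPM in HO, against 777, 827 and 724 CPM in RA (log2 fold change -0.86, SE 0.13, adjusted p = 0.00268). The groups were far apart. Bhlhe40, a transcription factor gene, rose (log2 fold change 0.77, adjusted p = 0.00895), but was not called with HO 2 and RA 3 both left out (0.0514). Vasn rose slightly (log2 fold change 0.37, adjusted p = 0.0417), and encodes a protein that binds TGF-beta rather than a classical target. Vasn was not called when any 1 library was left out (adjusted p 0.0869 to 0.128). Other endothelial BMP targets, Atoh8, Hey1 and Hey2, were not called (log2 fold changes -0.16, -0.22 and 0.39). The summed alveolar type 1 level was 2.27-fold higher in the same hyperoxia libraries, and its part in these counts was not tested.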

How the data were processed

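The deposited values were raw counts per Ensembl gene, 1 column for each of 6 libraries. Per the submitters' processing notes, the tools were HISAT2 2.2.1, Subread 2.0.6, featureCounts and DESeq2, on build GRCm39; their order and roles are unnamed. The sources used here do not give the annotation release, the strand setting or how multimapping reads were treated. Counts of overlapping genes are therefore uncertain. Symbols were matched by gene ID, and exon lengths and overlaps come from GENCODE M21 (GRCm38).

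In R 4.3.3, genes were kept by filterByExpr (minimum count 10, minimum total 15), scaled by TMM (factors 0.975 to 1.04) and compared across all genes with edgeR 4.0.16's robust quasi-likelihood test, with Benjamini-Hochberg adjustment. Standard errors were derived from the log2 fold change and its F statistic, and they and the 95% limits are approximate. The test was tried on simulated counts first. Members and lists were chosen with earlier results of these data known. Every member is accounted for, with values per library for called members and for the most abundant member of a role with none called; further values were added for neighbouring genes. Alternatives included DESeq2 1.42.0 and limma-voom (limma 3.58.1). No libraries of a group were duplicates (chi-square at least 14.1 per degree of freedom for each pair). The 95% limits come from the fit and include the variation between libraries. Some called genes of the lists are counted but not reported here by name.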

Additional observations from a re-analysis of the deposited data

How the results depend on the processing

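Inhba, Fstl3, Tgfb2 and Smad3 kept their direction and their call in all 17 alternatives, and the other 8 called genes kept their direction but lost the call in at least 2. Of 846 values for single members under an alternative, 801 stayed on their side of the threshold, 41 lost it, 4 gained it and 0 changed direction past it. Counts of higher members ran from 5 to 10 and of lower members from 0 to 3 when each library was left out. The same ranges were 0 to 4 and 0 to 2 for higher and lower BMP genes, 1 to 2 for higher TGF-beta genes, 681 to 1095 for all higher genes and 376 to 749 for all lower genes.

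At an adjusted p below 0.01, 4 members were higher and 0 lower, with 0 higher and 0 lower BMP genes, 1 higher TGF-beta gene, 556 higher genes in all and 233 lower genes in all. At 0.1, 1 activin gene (Gdf11) was lower, and 1235 genes in all. By DESeq2's test 1 activin gene and 1242 genes in all were lower, and with Y-linked reads as a term 1 and 1236. With no filter on low counts, 1243 genes in all were lower. Scaling by library size only left 2 higher BMP genes.

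Same-numbered HO and RA libraries did not deviate together (correlations of -0.0899 to 0.112), so the replicate numbers were not taken as pairs. With the replicate block, 0 members and 0 BMP genes were lower and 1 TGF-beta gene was higher; Bmp2, Bmp5, Bmp6 and Ltbp3 lost their calls. Chosen after seeing the data were leaving out HO 2 and RA 3 together, which left 2 higher BMP genes, and using only libraries with Y-linked reads, HO 2 against RA 1, 2 and 3, which left 1 higher TGF-beta gene and assumes that HO 2 varies like room air. The causes were not tested. The limits of Chrdl1, Fst and Bmpr1b were wide.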

Other observations

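Beyond the comparisons above, the ratio of Inhba to Inhbb, each per kilobase of exon, was 0.247, 0.337 and 0.178 in HO and 0.0291, 0.0182 and 0.0575 in RA. Inhbb, which is the more abundant activin subunit gene in both groups, thus lay closer to Inhba in hyperoxia, without overlap between the groups. The ratio of Bmpr1a to Bmpr2 was 0.228, 0.401 and 0.265 in HO and 0.116, 0.101 and 0.221 in RA, again without overlap, though HO 1 and RA 3 were close. The pairs were chosen with the fold changes known, so these ratios restate the calls of Inhba and Bmpr1a. An exact permutation test of 3 against 3 libraries cannot give a p below 0.1.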
